A study of Mus musculus with 10 samples.

Results

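The 10 genes described here are the core circadian clock genes of the mouse: Arntl, Clock, Npas2, Cry1, Cry2, Per1, Per2, Per3, Nr1d1 and Nr1d2. They are listed by name as the core loop, with no threshold on a measured value, and all 10 were found among the 38922 genes of the deposited tables. These genes and the lists below were chosen with earlier results of these data known. RNA-seq was performed on whole livers of wildtype male C57BL/6N mice at 6 weeks of age. The study addressed what happens to the liver when the death receptor CD95 is triggered: 5 mice were given an intraperitoneal injection of CD95-Ab, an antibody that activates CD95 (FAS), at 0.5 µg per g of body weight, and 5 mice an equal volume of saline. All livers were taken 6 h after the injection. The hour of day of the injections is not given in the sources used here, and there was a single time point. A level below is therefore a snapshot of genes whose levels vary over the day. Whether both groups were injected and collected at the same hour is not given either. A difference in hour between the groups cannot be told apart from the treatment in any comparison below. The antibody triggers apoptosis of hepatocytes and serves as a model of acute liver failure.

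The mammalian clock is a feedback loop of transcription. ARNTL (also called BMAL1) pairs with CLOCK or with NPAS2, and the pair binds E-boxes in DNA to switch on the Per and Cry genes, whose proteins gather in the cytoplasm, return to the nucleus and repress the pair that induced them. The nuclear receptors NR1D1 and NR1D2 (REV-ERB alpha and beta), switched on by the same pair, repress Arntl and Npas2 through elements that the ROR receptors use to activate them. In the liver this loop drives daily rhythms in bile acid, glucose and lipid metabolism, in large part through the factors DBP, TEF and HLF, which bind D-boxes, and NFIL3, which opposes them there.

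The loop is known to act through short DNA elements in promoters and enhancers, and 4 promoters are shown because each holds a different arrangement of matches to those elements. The RefSeq table for GRCm38.p6, which gives 250 bases before and 50 bases after each annotated start, held 13 promoters of 9 of the 10 genes. Per2 had no entry. Both strands were searched for the E-box CACGTG, the E'-box CACGTT, the D-box TTATGTAA and the ROR element TAGGTCA. No matches of these motifs overlapped in the sequences shown. Capitals mark the matches, positions give the leftmost base of a match counted from 0 at the annotated start, and each sequence is written 5′ to 3′ on the strand of its gene. The Arntl promoter (chr7:113207261-113207560, plus strand) held a ROR element at position 30 from the start:
Arntl: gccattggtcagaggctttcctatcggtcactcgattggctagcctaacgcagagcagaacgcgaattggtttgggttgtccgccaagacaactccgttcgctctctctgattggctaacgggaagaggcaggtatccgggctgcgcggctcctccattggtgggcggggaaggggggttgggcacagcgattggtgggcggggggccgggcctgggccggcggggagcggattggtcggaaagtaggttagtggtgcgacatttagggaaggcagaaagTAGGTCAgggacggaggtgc
The Cry1 promoter (chr10:85185005-85185304, minus strand) held an E'-box, read on the opposite strand, at position -79 and an E-box at position -60:
Cry1: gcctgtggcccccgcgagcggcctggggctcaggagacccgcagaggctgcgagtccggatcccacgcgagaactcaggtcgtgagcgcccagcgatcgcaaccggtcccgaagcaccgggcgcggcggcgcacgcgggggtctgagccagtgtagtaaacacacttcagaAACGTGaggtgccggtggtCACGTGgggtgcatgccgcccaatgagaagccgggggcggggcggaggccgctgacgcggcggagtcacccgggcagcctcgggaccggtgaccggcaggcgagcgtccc
The Per1 promoter (chr11:69098699-69098998, plus strand) held an E-box at position -166:
Per1: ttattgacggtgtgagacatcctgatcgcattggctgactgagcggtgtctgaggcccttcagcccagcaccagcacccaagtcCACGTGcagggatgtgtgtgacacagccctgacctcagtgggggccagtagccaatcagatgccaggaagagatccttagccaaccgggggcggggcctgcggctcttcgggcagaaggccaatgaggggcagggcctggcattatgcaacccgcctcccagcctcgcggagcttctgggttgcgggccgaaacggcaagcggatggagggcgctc
The Per3 promoter (chr4:151044616-151044915, minus strand) held D-boxes at positions -205 and -158, and no E-box within this window:
Per3: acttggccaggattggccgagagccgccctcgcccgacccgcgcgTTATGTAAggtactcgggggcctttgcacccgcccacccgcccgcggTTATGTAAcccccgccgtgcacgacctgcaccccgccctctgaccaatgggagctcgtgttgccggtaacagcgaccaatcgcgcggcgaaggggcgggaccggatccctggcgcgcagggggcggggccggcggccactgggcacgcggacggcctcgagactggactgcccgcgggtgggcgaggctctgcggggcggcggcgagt
In all, 6 of the 13 promoters, from 6 genes, held a match. Of the other members, Cry2 held an E'-box at position -166 and Nr1d1 held one at position -28. The promoters of Clock, Npas2 and Nr1d2, and the other entries for Arntl and Per1, held none of these letters. Among the 32851 mouse promoters of the same length, 7.15% held the E-box, 4.68% the E'-box, 0.938% the D-box and 2.61% the ROR element. A match describes the letters in the window and says nothing about binding in these livers.

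The libraries held between 25965699 and 62097636 counts each. The edgeR test of CD95-Ab against saline covered 13719 genes, of which 47.3% passed a false discovery rate (FDR, Benjamini-Hochberg) of 0.05: 25.4% were higher (3480 genes) and 22.0% lower (3015 genes) with CD95-Ab. That balance turned with the scaling, to 3163 higher and 3591 lower with upper quartile factors and 2878 higher and 3244 lower with totals only, while 2 clock genes were higher and 3 lower under each. All values below are CPM (counts per 1000000 after TMM scaling) unless stated, and every share of clock genes is to be read against those backgrounds. CD95-Ab replicate 1 stood apart from the other mice injected with CD95-Ab in the sums of neutrophil, erythrocyte and poly(A)-free transcripts. Over all tested genes it did not stand apart. It was at an end of its group for 38.7% of them, and the other CD95-Ab mice for 23.3% to 57.3%. The summed CPM of 8 neutrophil markers was 4.19 to 10.6 in the saline mice, 102 in CD95-Ab replicate 1 and 254 to 410 in the other CD95-Ab mice. The sum of 5 erythrocyte genes was 135 to 323, then 1060, then 5350 to 34000 in the same order. Transcripts that lack a poly(A) tail, listed to check RNA quality, summed to 0.338 to 0.924, then 360, then 567 to 1320. These sums did not overlap between the groups. A difference in RNA quality or capture therefore cannot be told apart from the treatment, and its part in the clock results was not tested. The 10 hepatocyte markers summed to 108000 to 133000 with saline, 69900 in CD95-Ab replicate 1 and 52400 to 89900 in the others, and 3 of 10 were lower. Of the markers that could be tested, all 5 neutrophil, all 5 erythrocyte, all 6 poly(A)-free, 6 of 7 endothelial, 5 of 7 stellate, 4 of 5 cholangiocyte, 7 of 8 lymphocyte and 3 of 8 macrophage genes were higher. No marker was at 0 in every mouse. In whole liver, fewer cells of a type and less RNA per cell cannot be told apart. Some markers of every listed type moved with the treatment, and their part in the clock results was not tested. The clock results are also given without CD95-Ab replicate 1, which had the lowest neutrophil, erythrocyte and poly(A)-free sums of its group. Leaving it out does not take away the marker shifts. Without it all 5 neutrophil, all 5 erythrocyte and all 7 poly(A)-free genes tested were higher.

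Levels of different genes can be compared only per transcript length, for which the deposited FPKM values were used. In the saline livers Nr1d1 was the most abundant of the clock transcripts, at 38.3 ± 11.2 FPKM (SD, n = 5), followed by Nr1d2 at 19.2 ± 3.75. The ranges of these receptors did not overlap, with 26.6 to 52.8 FPKM for Nr1d1 and 14.8 to 24.1 FPKM for Nr1d2. Next in order were Per1 at 9.14 ± 4.70 FPKM and Cry2 at 8.39 ± 1.42 FPKM, whose ranges overlapped with each other, and that of Per1 just reached Nr1d2. Per3 at 4.47 ± 1.4, Clock at 3.2 ± 1.05 and Per2 at 2.87 ± 1.48 FPKM had ranges that overlapped one another, and that of Per3, up to 5.86 FPKM, lay below that of Cry2, from 6.96 FPKM, but not below all of Per1, from 5.07 FPKM. Cry1 at 0.94 ± 0.15 FPKM and Arntl at 0.928 ± 0.385 FPKM could not be ranked, the highest value of Arntl being level with the lowest of Per2 at 1.28 FPKM, and Npas2 was lowest, below every value of Arntl, with 0.064 ± 0.0251 FPKM. After CD95-Ab the top was held by the same genes, Nr1d1 at 30.9 ± 11.6 FPKM, Per1 at 12.6 ± 2.87 FPKM and Nr1d2 at 11.7 ± 3.2 FPKM, with ranges that overlapped. Per3, at 0.512 ± 0.709 FPKM, had moved from the middle of the order to a level near that of Npas2 at 0.39 ± 0.393 FPKM. When CD95-Ab replicate 1 was left out, Nr1d1 was at 35.7 ± 4.66, Per1 at 12.1 ± 3.08 and Nr1d2 at 10.4 ± 0.912 FPKM (SD, n = 4), with Nr1d1 above the ranges of both others. Per3, at 0.195 ± 0.0289 FPKM, was then the lowest of the clock genes by its mean, though its range of 0.16 to 0.23 FPKM overlapped that of Npas2, 0.16 to 0.9 FPKM.

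With CD95-Ab, 5 of the 10 clock genes passed the test. Npas2 and Cry1 were higher, and Per3, Cry2 and Nr1d2 were lower. The remaining genes, Arntl, Clock, Per1, Per2 and Nr1d1, did not pass. A share of 5 in 10 is close to the 47.3% of all tested genes, so the number of clock genes called is not in itself a result about the clock. For 4 of the 10, 1 higher and 3 lower, the values of the groups did not overlap, against 33.3% of all tested genes. The median log2 fold change of the 10 was 0.12 and that of all tested genes 0.006. Without CD95-Ab replicate 1, 6 of 10 passed (3 higher, with Arntl added, and 3 lower) against 43.7% of all tested genes, and the same 6 did not overlap, 3 higher against 20.2% and 3 lower against 16.0% of all tested genes (36.2% in either direction). A log2 fold change of at least 2 in either direction at that FDR was found for 2 of the 10, Npas2 (higher) and Per3 (lower), against 7.7% of all tested genes, of which 6.59% were higher and 1.11% lower. The same 2 clock genes passed it without CD95-Ab replicate 1, against 8.22% of all tested genes, with 7.03% higher and 1.19% lower. Each role in the loop held a gene that passed, and for every role but that of the Cry genes it also held genes that did not, as the plot of the 10 genes by mouse shows.

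**Figure D1:**
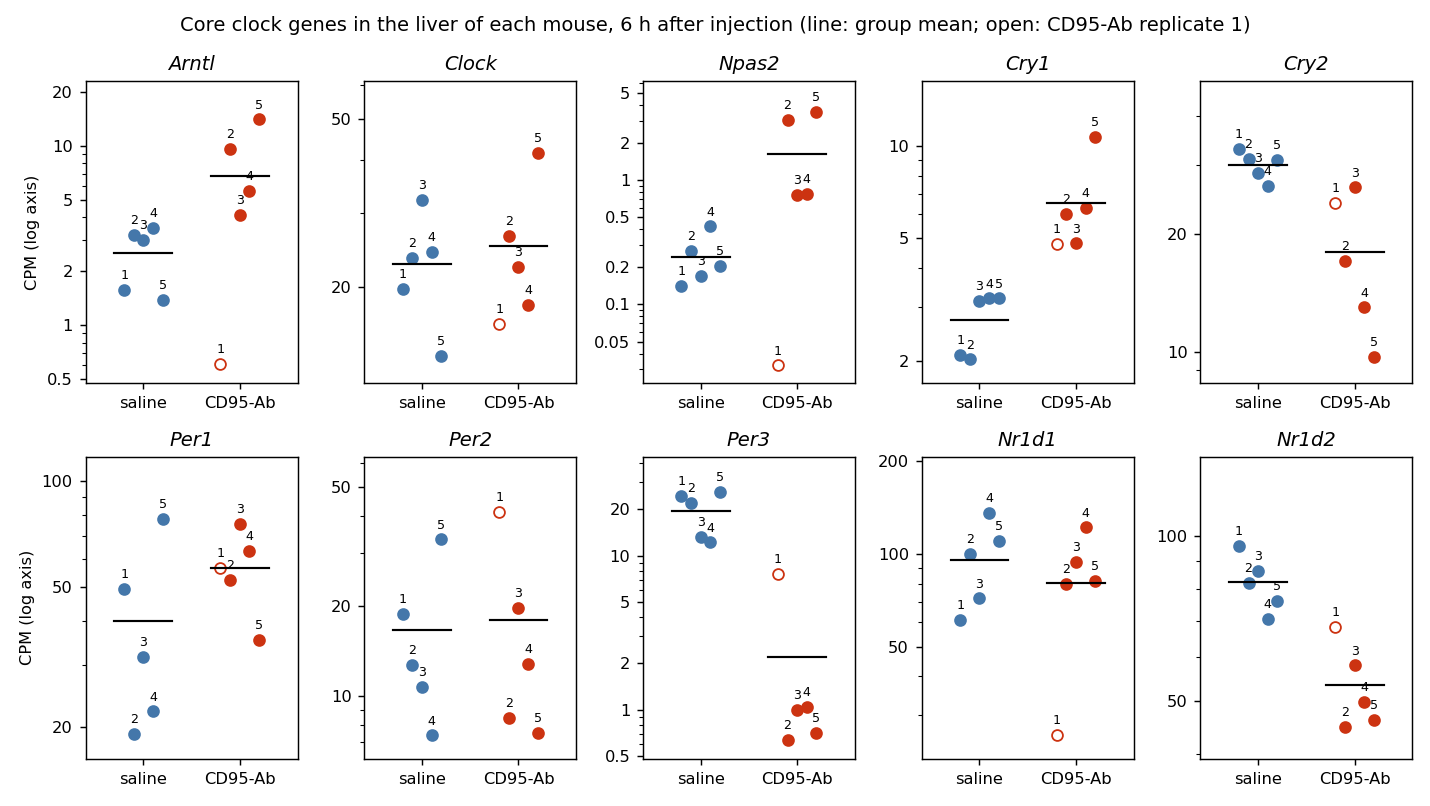
CPM on a log axis of the 10 core clock genes in each of 5 saline and 5 CD95-Ab mice, with a line at each group mean and an open symbol for CD95-Ab replicate 1. Cry1 sits above, and Cry2, Per3 and Nr1d2 below, the saline range in all CD95-Ab mice, and the open symbol lies apart from the other CD95-Ab mice for Arntl, Npas2, Per2, Per3 and Nr1d1.

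Among the activators, Npas2 rose and its partner Arntl was higher in most CD95-Ab mice, while Clock did not pass the test. Arntl (ENSMUSG00000055116, chr7:113207465-113314126), the obligate partner in the activating pair, was at 1.58, 3.2, 2.99, 3.50 and 1.39 CPM in saline replicates 1 to 5 and at 0.61, 9.62, 4.14, 5.61 and 14.1 CPM in CD95-Ab replicates 1 to 5. CD95-Ab replicate 1 was the lowest of all 10 mice, and the other CD95-Ab mice were above every saline mouse. The means were 2.53 ± 0.976 and 6.82 ± 5.20 CPM (SD, n = 5 each), a log2 fold change of 1.45 (SE 0.59, 95% interval 0.17 to 2.73) with an edgeR FDR of 0.0605, which misses the threshold. Without CD95-Ab replicate 1 the log2 fold change was 1.74 with an edgeR FDR of 0.00414. Arntl passed with no other mouse left out. Without CD95-Ab replicate 5, its highest mouse, the log2 fold change was 0.99 with an edgeR FDR of 0.183. With the replicate number fitted as a block it was 1.02 with an edgeR FDR of 0.18.

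Npas2 (ENSMUSG00000026077, chr1:39193731-39363236), which can take the place of CLOCK, was at 0.141, 0.267, 0.169, 0.423 and 0.204 CPM with saline and at 0.0321, 3.03, 0.756, 0.767 and 3.54 CPM with CD95-Ab. The pattern over mice was that of Arntl, with CD95-Ab replicate 1 below all saline mice and the other CD95-Ab mice above them. Npas2 rose from 0.241 ± 0.112 to 1.62 ± 1.55 CPM (SD, n = 5 each), a log2 fold change of 2.81, or 7.02-fold (SE 0.79, 95% interval 1.08 to 4.54, edgeR FDR 0.012). Without CD95-Ab replicate 1 the log2 fold change was 3.12 with an edgeR FDR of 0.000973. The reads behind it were few, with 6 to 11 counts in the saline mice, 1 count in CD95-Ab replicate 1, which is under the floor of 3 counts, and 19 to 160 counts in the other CD95-Ab mice.

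Clock (ENSMUSG00000029238, chr5:76209868-76304792), which encodes the histone acetyltransferase of the pair, was at 19.8, 23.5, 32.2, 24.2 and 13.8 CPM with saline and at 16.4, 26.5, 22.3, 18.2 and 41.5 CPM with CD95-Ab. The groups overlapped throughout, and the highest value was that of CD95-Ab replicate 5. The log2 fold change of 0.14 (SE 0.27, edgeR FDR 0.694) had a 95% interval from -0.45 to 0.73. It came to 0.00 without saline replicate 5, -0.12 without CD95-Ab replicate 5 and 0.26 without CD95-Ab replicate 1.

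The Cry genes, which encode the strongest repressors of the activating pair, moved in opposite directions. Cry1 (ENSMUSG00000020038, chr10:85131700-85185064), whose promoter holds the E-box shown above, was at 2.09, 2.02, 3.13, 3.19 and 3.19 CPM with saline and at 4.81, 6.02, 4.82, 6.30 and 10.7 CPM with CD95-Ab. All CD95-Ab mice lay above all saline mice, with CD95-Ab replicate 5 highest and replicate 1 lowest of its group. Cry1 rose from 2.72 ± 0.612 to 6.52 ± 2.41 CPM (SD, n = 5 each), a log2 fold change of 1.26 (SE 0.25, 95% interval 0.72 to 1.81, edgeR FDR 0.00147), and the value was 1.35 without CD95-Ab replicate 1.

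Cry2 (ENSMUSG00000068742, chr2:92403646-92434043) was at 33.0, 31.1, 28.7, 26.5 and 30.9 CPM with saline and at 24.0, 17.1, 26.3, 13.0 and 9.74 CPM with CD95-Ab. The saline mice were close together, and every CD95-Ab mouse was below them, though replicate 3 only just. Cry2 fell from 30.0 ± 2.50 to 18 ± 7.07 CPM (SD, n = 5 each), a log2 fold change of -0.74 (SE 0.24, 95% interval -1.25 to -0.23, edgeR FDR 0.0217), and the value was -0.87 without CD95-Ab replicate 1. The noncoding gene D930015M05Rik runs antisense over 295 of the 6320 exonic bases of Cry2, and its own level was 0.41 ± 0.139 CPM with saline and 0.343 ± 0.122 CPM with CD95-Ab. The library kit does not mark strand, so reads from that stretch cannot be assigned to either gene.

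Of the Per genes, which encode the partners of the CRY proteins in the repressing complex, Per3 fell and Per1 and Per2 did not pass the test. Per3 (ENSMUSG00000028957, chr4:151003652-151044665) was at 24.4, 22.1, 13.3, 12.2 and 26 CPM with saline and at 7.57, 0.637, 0.995, 1.05 and 0.709 CPM with CD95-Ab. Its promoter window held the D-box matches shown above, while Per2 had no entry to search. A part of D-boxes in the change of Per3 was not tested. All CD95-Ab mice were below all saline mice, and CD95-Ab replicate 1 lay between the saline mice and the other CD95-Ab mice. Per3 fell from 19.6 ± 6.43 to 2.19 ± 3.01 CPM (SD, n = 5 each), with a log2 fold change of -3.16, or 8.92-fold lower (SE 0.65, 95% interval -4.58 to -1.74, edgeR FDR 0.00191). In the other CD95-Ab mice it averaged 0.848 ± 0.205 CPM (SD, n = 4), and the log2 fold change without replicate 1 was -4.55 with an edgeR FDR of 2.22e-06. Per3 shares no exonic base with Camta1, the gene it overlaps on the same strand.

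Per1 (ENSMUSG00000020893, chr11:69095217-69109960), which responds fast to glucocorticoids and other signals, was at 49.4, 19.2, 31.7, 22.2 and 78.2 CPM with saline and at 56.6, 52.4, 75.6, 63.3 and 35.4 CPM with CD95-Ab. Saline replicate 5 was the highest of all mice and CD95-Ab replicate 5 the lowest of its group, so the groups overlapped. The means were 40.1 ± 24.3 and 56.7 ± 14.8 CPM (SD, n = 5 each), and the log2 fold change was 0.49 (SE 0.35, 95% interval -0.28 to 1.27, edgeR FDR 0.273). This result depended on saline replicate 5, the library with the most counts. Without it the log2 fold change was 0.88 with an edgeR FDR of 0.0274, and without CD95-Ab replicate 1 it was 0.49.

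Per2 (ENSMUSG00000055866, chr1:91415982-91459324) was at 18.8, 12.7, 10.7, 7.39 and 33.4 CPM with saline and at 41.4, 8.47, 19.7, 12.8 and 7.55 CPM with CD95-Ab. CD95-Ab replicate 1 was the highest of all mice and saline replicate 5 the next, and the remaining mice overlapped. The log2 fold change was 0.11 (SE 0.50, 95% interval -0.98 to 1.2, edgeR FDR 0.871). Its direction depended on single mice: it was -0.46 without CD95-Ab replicate 1, -0.02 without saline replicate 3 and -0.10 without saline replicate 4, and it was also negative on the FPKM scale.

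Of the nuclear receptors that repress Arntl, Nr1d2 fell and Nr1d1 did not pass the test, though the ratio of Nr1d1 to Nr1d2 given below did not pass its test either. Nr1d2 (ENSMUSG00000021775, chr14:18204054-18239127) was at 96.2, 82.2, 86.4, 70.7 and 76.2 CPM with saline and at 68.3, 44.7, 58.0, 49.7 and 46.1 CPM with CD95-Ab. The groups did not overlap, although CD95-Ab replicate 1 came close to the lowest saline mouse. Nr1d2 fell from 82.4 ± 9.75 to 53.4 ± 9.80 CPM (SD, n = 5 each), a log2 fold change of -0.63 (SE 0.14, 95% interval -0.94 to -0.31, edgeR FDR 0.00359), and the value was -0.73 without CD95-Ab replicate 1.

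Nr1d1 (ENSMUSG00000020889, chr11:98767932-98775333) was at 61.0, 99.9, 71.7, 136 and 110 CPM with saline and at 25.8, 79.8, 94.3, 122 and 81.7 CPM with CD95-Ab. CD95-Ab replicate 1 was the lowest of all mice, and the other CD95-Ab mice lay within the saline range. The log2 fold change was -0.24 (SE 0.34, 95% interval -0.99 to 0.50, edgeR FDR 0.583) and -0.02 without CD95-Ab replicate 1. Nr1d1 shares 263 of its 3077 exonic bases with Thra, the thyroid hormone receptor gene on the opposite strand, and without strand those reads cannot be told apart. Thra was at 9.15 ± 2.01 CPM with saline and 9.70 ± 4.63 CPM with CD95-Ab (edgeR FDR 0.833), far below Nr1d1.

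**Figure D2:**
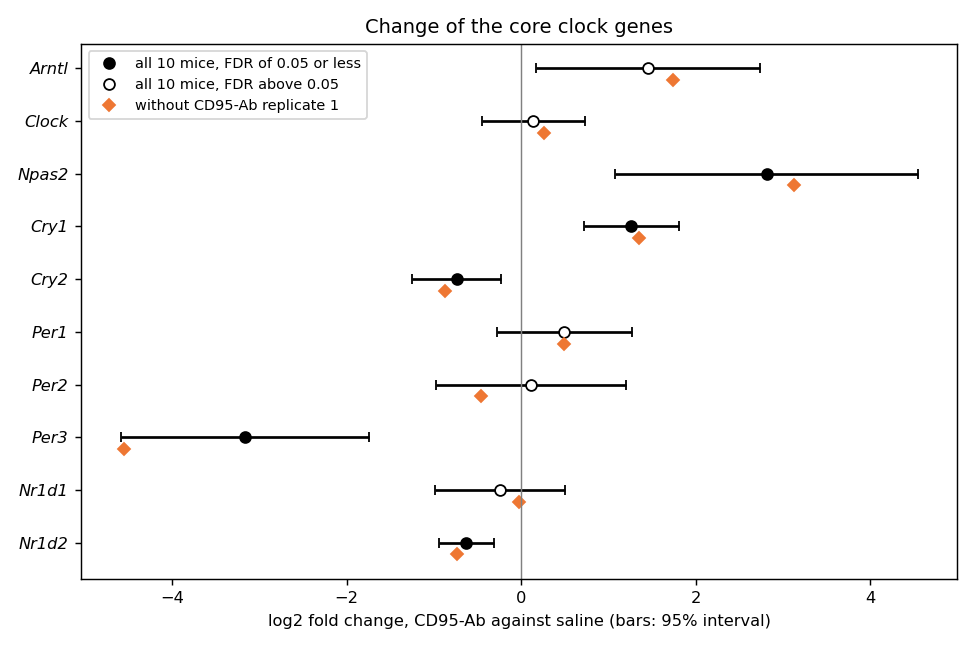
Log2 fold change of each clock gene, CD95-Ab against saline, with bars for the 95% interval (n = 5 mice per group), filled circles for an edgeR FDR of 0.05 or less and diamonds for the fit without CD95-Ab replicate 1. Per3 at -3.16 and Npas2 at 2.81 mark the ends of the range, and the interval of Arntl lies above 0 although its FDR is 0.0605.

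Related genes that fill the same role were then set against each other within each mouse, by the log2 ratio of their counts, which needs no scaling between libraries. Of 6 pairs compared, 3 differed between the groups by a two-sided exact permutation test (Benjamini-Hochberg over the 6 pairs). These 3 are not independent of the results for single genes. Both pairs with Per3 share its fall. For Cry1 and Cry2, which each lay outside the saline range in opposite directions in all CD95-Ab mice, separate ratios had to follow. The log2 ratio of Per1 to Per3 was 1.02, -0.21, 1.26, 0.87 and 1.59 with saline and 2.90, 6.33, 6.22, 5.89 and 5.62 with CD95-Ab. The groups did not overlap, with CD95-Ab replicate 1 between the others and the saline mice. The difference was 4.49 (exact permutation p = 0.00794, adjusted p = 0.0159), and 0.00794 is the smallest p that 5 against 5 mice can give.

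The log2 ratio of Per2 to Per3 was -0.38, -0.80, -0.32, -0.72 and 0.37 with saline and 2.45, 3.70, 4.28, 3.59 and 3.39 with CD95-Ab. Again all CD95-Ab mice were above all saline mice, with a difference of 3.85 (exact permutation p = 0.00794, adjusted p = 0.0159). Here CD95-Ab replicate 1 was nearer to the rest of its group than for Per2 or Per3 alone, since both genes were high in that mouse. The log2 ratio of Cry1 to Cry2 rose from -3.48 ± 0.44 to -1.43 ± 1.05 (SD, n = 5 each), a difference of 2.05 without overlap (exact permutation p = 0.00794, adjusted p = 0.0159). In CD95-Ab replicate 5 it reached 0.13, the highest of all mice. These differences without CD95-Ab replicate 1 were 5.11 for Per1 to Per3, 4.11 for Per2 to Per3 and 2.27 for Cry1 to Cry2.

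For 3 pairs the difference did not pass. The log2 ratio of Nr1d1 to Nr1d2 was 0.16 ± 0.63 with saline and 0.45 ± 1.06 with CD95-Ab (difference 0.29, exact permutation p = 0.627, adjusted p = 0.627). That of Per1 to Per2 was 1.27 ± 0.41 and 1.91 ± 0.85 (difference 0.64, exact permutation p = 0.183, adjusted p = 0.219). That of Clock to Npas2 was 6.53 ± 0.70 and 4.89 ± 2.09 (difference -1.64, exact permutation p = 0.135, adjusted p = 0.202). CD95-Ab replicate 1 decided the last of these pairs and the Per1 to Per2 pair: without it the differences were 1.0 for Per1 to Per2 and -2.52 for Clock to Npas2, each with an exact permutation p of 0.00794 and an adjusted p of 0.00952. That of Nr1d1 to Nr1d2 was then 0.75 (exact permutation p = 0.0794, adjusted p = 0.0794).

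**Figure D3:**
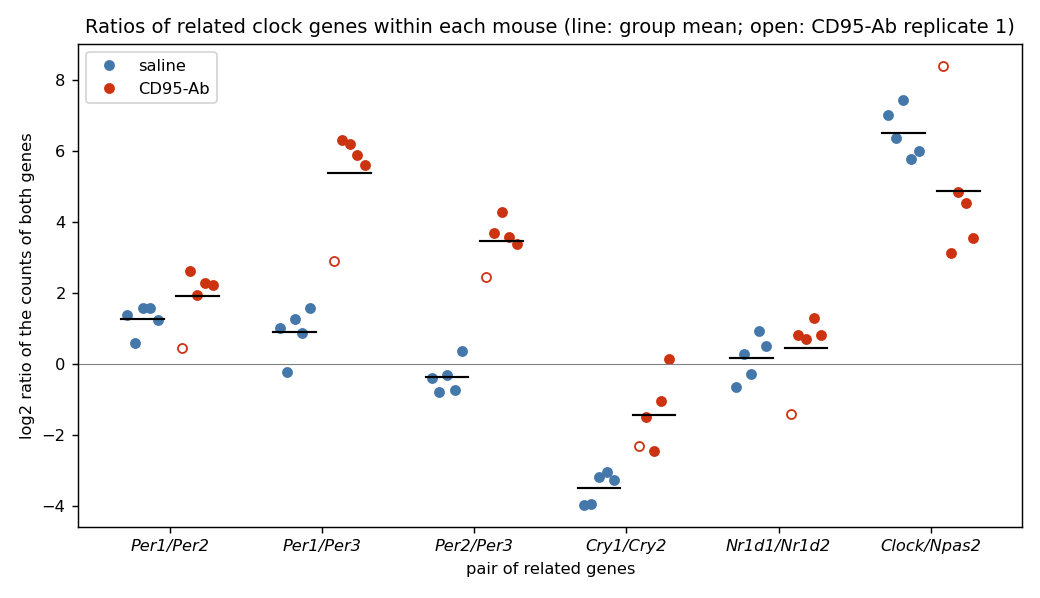
Log2 ratio of the counts of 6 pairs of related clock genes in each of 5 saline and 5 CD95-Ab mice, with lines for group means and an open symbol for CD95-Ab replicate 1. The groups are separate for Per1/Per3, Per2/Per3 and Cry1/Cry2, and the open symbol lies on the far side of the saline mice for Clock/Npas2.

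The clock genes also differed among mice of the same group. In the saline group, replicate 5 had the highest Per1, Per2 and Per3 and the lowest Arntl and Clock, whereas replicate 4 had the highest Arntl, Npas2, Nr1d1 and, by a narrow margin, Cry1 and the lowest Per2, Per3, Cry2 and Nr1d2. In the CD95-Ab group, replicate 1 had the highest Per2, Per3 and Nr1d2 and the lowest Arntl, Clock, Npas2, Cry1 and Nr1d1, and replicate 5 had the highest Arntl, Clock, Npas2 and Cry1 and the lowest Per1, Per2 and Cry2. CD95-Ab replicate 1 was thus at an end of its group for 8 of the 10 genes, against 38.7% of all tested genes. For saline replicate 4 it was 8 of 10 against 29.1%, and for CD95-Ab replicate 5 it was 7 of 10 against 40.4%. Saline replicate 5, in contrast, was at an end for 5 of 10 against 61.4%, and the other 6 mice for 1 to 4 of 10 against 23.3% to 57.3%. Clock genes are not independent of one another, so these counts are a description.

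**Figure D4:**
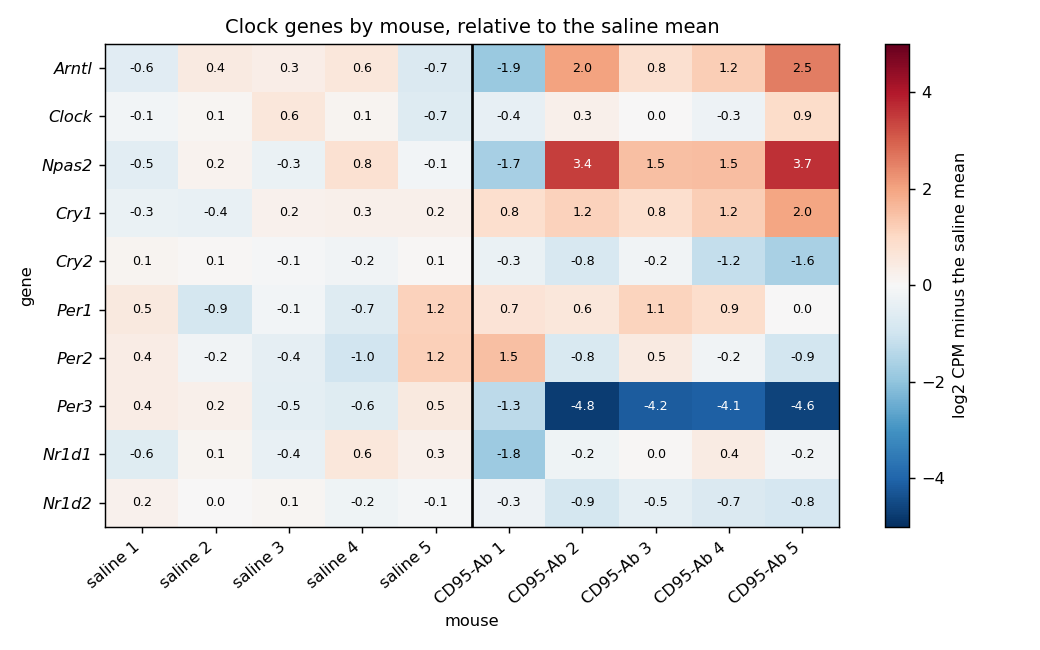
Log2 CPM of the 10 clock genes in each mouse minus the mean of the saline mice, with a vertical line between the groups. Per3 is below the saline mean in all CD95-Ab mice, and CD95-Ab replicate 1 shows lower Arntl and Npas2 with higher Per2 than the other CD95-Ab mice.

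Across the 10 mice, after the mean of each group was taken off the log2 CPM, Arntl followed its partners and ran against the Per genes. Pearson's r with Arntl was 0.95 for Npas2 (rho 0.84) and 0.75 for Clock (rho 0.88). It was -0.91 for Per2 (rho -0.92), -0.95 for Per3 (rho -0.90), -0.81 for Nr1d2 (rho -0.75) and -0.70 for Cry2 (rho -0.67). Without CD95-Ab replicate 1 these became 0.83 for Npas2, 0.83 for Clock, -0.91 for Per2, -0.76 for Per3, -0.60 for Nr1d2 and -0.66 for Cry2 over 9 mice, so that the signs held. Without CD95-Ab replicates 1 and 5, the mice farthest from the median of Arntl, they were 0.74 for Npas2, 0.74 for Clock, -0.93 for Per2, -0.80 for Per3, -0.57 for Nr1d2 and -0.44 for Cry2.

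For Per1 and Nr1d1 the relation with Arntl depended on that mouse: r went from -0.47 to -0.89 for Per1 and from 0.72 to -0.02 for Nr1d1. Among 12120 genes outside the clock list with a mean of at least 1 CPM, the 5 genes most like Arntl in this measure were Leo1 (r 0.95), which is also on the list of clock outputs below, Slc30a10 (r 0.94), Bco2 (r 0.94), Fam198a (r 0.92) and Asap2 (r 0.91). Without CD95-Ab replicate 1 their r was 0.74 to 0.89. For Nr1d1 they were Cep44 (r 0.96), Pnrc1 (r 0.95), Cyp4f17 (r 0.93), Leap2 (r 0.93) and Smarcd1 (r 0.93), with 0.72 to 0.88 without that mouse. All genes of a mouse come from the same library, and these genes were picked as the highest of many, so the values describe likeness only.

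Beside the core loop, 31 genes that regulate clock transcription or the stability of clock proteins were listed, of which 30 could be tested. Of these, 8 were higher and 5 lower, which is 13 of 30 against 47.3% of all tested genes, and the median of their log2 fold changes was 0.03. When CD95-Ab replicate 1 was left out, 14 of 30 passed, against 43.7% of all tested genes. Both shares are close to those of all tested genes, so the number called is not in itself a result about these regulators. Among the higher genes, Bhlhe40, an E-box repressor also called DEC1, went from 215 ± 32.1 to 501 ± 114 CPM (SD, n = 5 each, log2 fold change 1.22, edgeR FDR 0.00023). Csnk1e, the casein kinase that marks PER proteins for destruction, rose from 5.25 ± 0.883 to 11.7 ± 1.34 CPM (log2 fold change 1.16, edgeR FDR 5.64e-05), without overlap. Its close relative Csnk1d did not pass, with a log2 fold change of 0.06 (SE 0.14, edgeR FDR 0.721), and the difference between these kinases was not tested. Nampt, the rate-limiting enzyme of NAD salvage, had a log2 fold change of 0.88 (edgeR FDR 0.00808), and Sfpq, an RNA-binding partner of the PER complex, one of 0.81 (edgeR FDR 4.81e-05).

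Among the lower regulators, Usp2, a deubiquitinase of clock proteins, fell from 20.1 ± 9.44 to 3.26 ± 3.23 CPM (SD, n = 5 each, log2 fold change -2.62, edgeR FDR 0.00219), and its log2 fold change was -3.44 without CD95-Ab replicate 1. Fbxl21, a ubiquitin ligase subunit for CRY proteins, had a log2 fold change of -1.35 (edgeR FDR 0.000288). Prkaa2, a catalytic subunit of the energy sensor AMPK, had a log2 fold change of -0.68 (edgeR FDR 0.0319). Rora, which encodes a ROR receptor that activates Arntl through ROR elements, was among the higher regulators. It was at 53.7, 48.1, 54.0, 51.1 and 38.0 CPM with saline and at 61.2, 86.1, 106, 39.0 and 84.2 CPM with CD95-Ab, with CD95-Ab replicate 4 inside the saline range (log2 fold change 0.62, edgeR FDR 0.0412).

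Of 25 genes known as outputs of the liver clock, 16 passed, 5 higher and 11 lower, against 25.4% and 22.0% of all tested genes, and their median log2 fold change was -0.64. The counts were again 5 higher and 11 lower when CD95-Ab replicate 1 was left out, against 24.1% and 19.6% of all tested genes. For 10 of the 25 all CD95-Ab values were below all saline values, against 14.7% of all tested genes, and for 1, Nfil3, they were all above, against 18.6%. The list of outputs was chosen with earlier results of these data known, so these shares are a description. Dbp, the D-box activator that is among the most direct targets of the activating pair, was at 70.7, 68.5, 43.7, 42.9 and 130 CPM with saline and at 19.1, 1.24, 2.47, 2.10 and 0.686 CPM with CD95-Ab. As for Per3, all CD95-Ab mice were below all saline mice and replicate 1 lay in between. The log2 fold change of Dbp was -3.80 (SE 0.82, edgeR FDR 0.00251), and -5.49 without CD95-Ab replicate 1. The related D-box activators, named after their values were seen, were also lower. Tef had a log2 fold change of -2.35 (edgeR FDR 0.00106), or -3.09 without CD95-Ab replicate 1, and Hlf one of -2.14 (edgeR FDR 3.31e-06). Nfil3, a repressor that also binds D-boxes, rose from 17.8 ± 5.07 to 38.8 ± 13.6 CPM (SD, n = 5 each, log2 fold change 1.12, edgeR FDR 0.00387).

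The other outputs named for their decrease act in metabolism. Cyp7a1, the rate-limiting enzyme of bile acid synthesis, fell from a range of 39.4 to 69.8 CPM in the saline mice to 0.382 to 1.76 CPM in the CD95-Ab mice (log2 fold change -5.46, edgeR FDR 1.38e-06). Ppp1r3c, which directs a phosphatase to glycogen, had a log2 fold change of -3.83 (edgeR FDR 3.25e-06), and Upp2, a uridine phosphorylase, one of -3.43 (edgeR FDR 2.8e-05). Besides Nampt and Nfil3, the named genes that were higher were Insig2, an inhibitor of sterol synthesis (log2 fold change 1.11, edgeR FDR 0.031), and the tetraspanin gene Tspan4 (log2 fold change 0.75, edgeR FDR 0.00817). The summed hepatocyte markers were lower in the same mice, as given above, though only 3 of the 10 markers passed as lower. Their part in these decreases was not tested.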

How the data were processed

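RNA-seq libraries from 500 ng of total liver RNA per mouse (TruSeq, paired reads of 100 bp, a kit that does not mark strand) were processed by the authors with RSEM 1.2.19. The deposited expected counts, whole numbers throughout, and the deposited FPKM values, which divide by transcript length and depth, are given per gene under mouse Ensembl identifiers. The aligned build and annotation release are not given in the sources used here. Symbols and positions were taken from GENCODE M21 (GRCm38), which matched 37606 of 38922 identifiers, and 15804 genes were at 0 in every mouse.

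Groups were taken from the sample labels. No label gives a batch, and p-values measure the spread between these 10 mice. Counts were tested in edgeR 4.0.16 (R 4.3.3) by the quasi-likelihood test of CD95-Ab against saline with TMM scaling, the filterByExpr filter at a minimum count of 10 and Benjamini-Hochberg adjustment over all 13719 genes tested. Ratios of related genes used counts plus 0.5 and two-sided exact permutation tests. Libraries held 25965699 to 62097636 counts, so that 3 counts correspond to 0.0556 to 0.121 CPM after TMM scaling. Intervals are 95% intervals. Alternatives were DESeq2 1.42.0, limma 3.58.1 on log2(FPKM + 0.1) and log2(FPKM + 1), other scalings and filters, a replicate block and each mouse left out. Comparisons of ranges, FPKM levels and correlations without CD95-Ab replicate 1 were added after the data were seen. The main edgeR fit was tested on simulated counts, and the alternatives were not.

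All 10 clock genes are described. From the lists of 31 regulators and 25 outputs, the 4 genes in each direction with the largest log2 fold change past FDR 0.05 and a mean of at least 1 CPM in either group were named, with Rora, Csnk1d and Csnk1e as partners of members. Other genes that this rule names are not reported here. The 5 genes most like Arntl and Nr1d1 were named by Pearson's r of group-centred log2 CPM (prior count 2). The members and lists were chosen with earlier results of these data known.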

Additional observations from a re-analysis of the deposited data

Results flagged for a closer look

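In groups of 5 mice, 50 sets of values over 25 clock, regulator and output genes were searched for a mouse far from the rest of its group, and 6 were found. For independent sets of normally distributed values, chance alone marks about 1 set in 20. The CPM values were not checked for that shape and the genes are not independent, so the rate expected here is not known. For Per3, CD95-Ab replicate 1 stood at 7.57 CPM while the other CD95-Ab mice were at 0.637 to 1.05 CPM. For Dbp the same mouse was at 19.1 CPM and the others at 0.686 to 2.47 CPM, and for Usp2 it was at 8.89 CPM and the others at 1.05 to 2.95 CPM. For Cry1, CD95-Ab replicate 5 was at 10.7 CPM and the others at 4.81 to 6.30 CPM. For Sfpq, CD95-Ab replicate 3 was at 80.5 CPM and the others at 65.3 to 68.9 CPM. For Bhlhe40, saline replicate 2 was at 159 CPM and the others at 223 to 235 CPM. CD95-Ab replicate 1, which accounts for 3 of the 6, is also the mouse with the lowest neutrophil, erythrocyte and poly(A)-free sums of its group.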

How the results depend on the processing

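With 5 mice per group and 25965699 to 62097636 counts per library, both the spread between mice and, for Npas2, counts of 1 to 160 limit the clock results. DESeq2 median-ratio, upper quartile or no scaling factors, the absence of a filter and the fit with a replicate block each gave 5 of 10 clock genes past FDR 0.05. Of all 13719 genes, 6571, 6754 and 6122 passed with those scalings in that order and 5987 with the block. Without a filter 6909 of 23118 passed. DESeq2 gave 6 clock genes, against 7546 of 17726 genes. The stricter filter, under which Npas2 was not tested, gave 4, against 5630 of 12120 genes. Both FPKM scales gave 4, against 6118 of 13719 genes on log2(FPKM + 0.1) and 6096 on log2(FPKM + 1). Arntl passed in DESeq2 (log2 fold change 1.41, FDR 0.0278). Npas2 missed the threshold in limma on log2(FPKM + 0.1) (1.15, FDR 0.0784) and on log2(FPKM + 1) (0.34, FDR 0.0819), scales that compress low genes, and was not tested when 10 counts were required in every mouse. Per2 turned to -0.06 and -0.02 on those FPKM scales. The number of all genes past FDR 0.05 with an absolute log2 fold change of 2 or more was 1056 by edgeR, 1651 without a filter, 602 with 10 counts in every mouse and 328 on log2(FPKM + 1).

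Leaving out each mouse in turn gave 5616 to 6977 genes past FDR 0.05, 1025 to 1170 of them with the larger fold change, 5 to 6 clock genes, 11 to 14 regulators and 14 to 17 outputs. The log2 fold changes ranged from 0.99 to 1.74 for Arntl, -0.12 to 0.29 for Clock, 2.29 to 3.12 for Npas2, 1.01 to 1.35 for Cry1, -0.91 to -0.58 for Cry2, 0.30 to 0.88 for Per1, -0.46 to 0.54 for Per2, -4.55 to -2.91 for Per3, -0.47 to -0.02 for Nr1d1 and -0.73 to -0.57 for Nr1d2. The differences of log2 ratios ranged from 0.46 to 1.0 for Per1/Per2, 4.21 to 5.11 for Per1/Per3, 3.65 to 4.11 for Per2/Per3, 1.66 to 2.30 for Cry1/Cry2, 0.08 to 0.75 for Nr1d1/Nr1d2 and -2.52 to -1.20 for Clock/Npas2.

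Mice with the same replicate number in both groups share only a number. The correlation of their deviations was -0.274 to 0.257, and 2 of 5 mice correlated best with their own number. When that number was fitted as a block, FDR 0.05 was passed by 5987 genes and the same number of clock genes, 2 higher and 3 lower. As pairs by number, the differences of 4.49 for Per1/Per3, 3.85 for Per2/Per3 and 2.05 for Cry1/Cry2 had a sign-flip permutation p of 0.0625, the smallest that 5 pairs can give (adjusted p = 0.125).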
